A study of Saccharomyces cerevisiae with 2 samples.

Results

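Of the nucleosomes of budding yeast chromosome III that were found at the same place in an H2A.Z library and in a total library, 291 ranked clearly lower in the H2A.Z library, and these are described here. Each library has a list of nucleosome centres from single-end data, with 1859 positions in the H2A.Z list and 1881 in the total list. Positions were paired when they were mutually nearest and their centres lay within 20 bp, which gave 1531 pairs. Each position of a pair received its score percentile among the paired positions of its own list, from 0 for the lowest to 1 for the highest score. Members were chosen by these scores, as the pairs whose H2A.Z percentile minus total percentile was -0.2 or less. They are compared with the 949 pairs between -0.2 and 0.2, called level pairs below, and where it helps with the 291 pairs at 0.2 or more. The same count of 291 at both ends arose from the ranks and was not set.

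Both libraries are Saccharomyces cerevisiae strain yFR212, a MATa strain of W303 background that carries mutant alleles of ADE2, TRP1, CAN1, LEU2, HIS3 and URA3 as markers and is GAL+ and psi+. Its HTZ1 gene, which encodes H2A.Z, ends in 3 Myc epitopes, and the total library comes from the tagged strain as well. Cultures in rich medium were taken at an OD600 of 0.8 and cross-linked in 1% formaldehyde. Their chromatin was cut for 20 minutes at 37 °C by micrococcal nuclease (MNase), an enzyme that digests the linker DNA between nucleosomes. The H2A.Z library holds mononucleosome DNA precipitated through the Myc tag, and the total library holds mononucleosome DNA without precipitation. There is 1 library per group, so no difference between them has replicate error and no p-value is given. The intervals printed are 95% intervals for counting error over positions, which are not replicates. The labels say that several amounts of MNase were used and not which amount each library received, so precipitation, digestion and sequencing lane cannot be told apart. The lists carry no read counts, and the depth is unknown.

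In a nucleosome, DNA is wrapped around 8 histone proteins, and H2A.Z is a variant that takes the place of H2A in some nucleosomes. In yeast it is placed by the SWR1 remodelling complex mainly in the nucleosomes that flank the nucleosome-depleted regions of promoters, above all the first nucleosome of a gene, and it is scarcer over the bodies of genes. Gene bodies carry regular arrays of nucleosomes that begin at those promoter nucleosomes. A position in the H2A.Z list need not carry H2A.Z, since DNA that came through the precipitation without it was not measured. The lists give coordinates in sacCer2, and the gene table used here belongs to another assembly, so no position was given a gene and no sequence was read. Place in an array was taken from the lists themselves.

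The members were 19.0% of the 1531 pairs (17.1 to 21.0%), and the pairs at 0.2 or more also made up 19.0%. These shares only say what the rule selected. The members had a median percentile of 0.31 in the H2A.Z list and of 0.67 in the total list. Level pairs had medians of 0.50 and 0.53. Of the members, 155 differed by 0.3 or more, 60 by 0.4 or more, 26 by 0.5 or more and 6 by 0.6 or more. In the H2A.Z list 5 members reached the 0.75 percentile, against 105 of the same 291 in the total list. Of the 949 level pairs, 266 reached it in the H2A.Z list and 278 in the total list. The rule largely sets the members' counts, since no member can exceed 0.8 in H2A.Z or lie under 0.2 in total. The 3 members just inside the limit differed by -0.203, -0.201 and -0.2, at total centres 106480, 160083 and 195306, and the 3 pairs just outside by -0.199, -0.199 and -0.198, at 192482, 311314 and 52211. The limit cuts a continuous range.

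**Figure D1:**
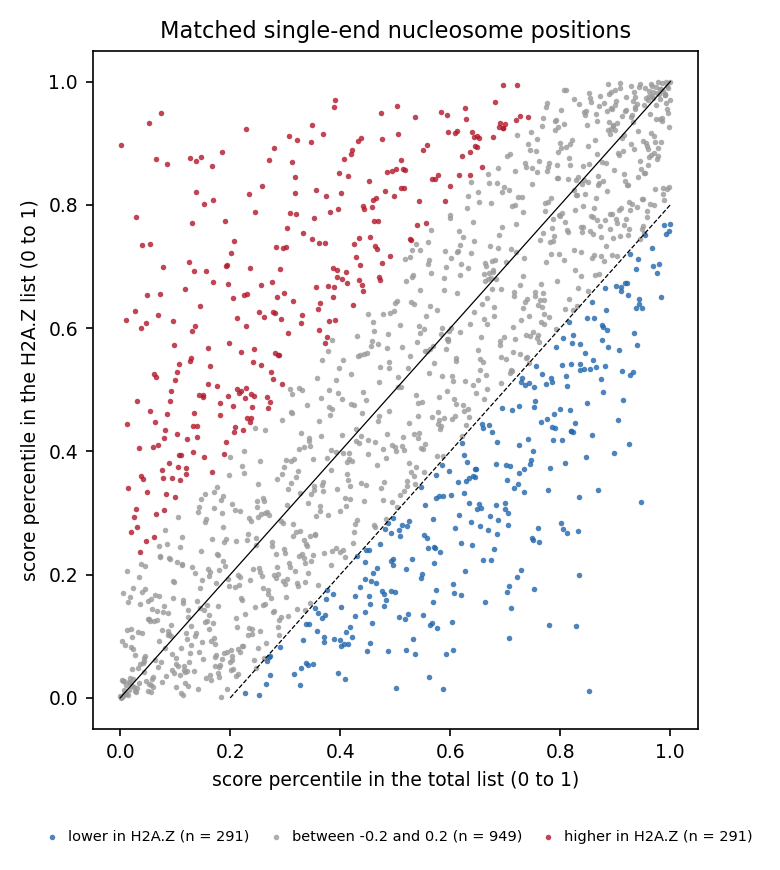
Score percentile in the H2A.Z list (vertical axis, 0 to 1) against score percentile in the total list (horizontal axis, 0 to 1) for the 1531 matched pairs, with 291 members in blue, 949 level pairs in grey and 291 pairs at 0.2 or more in red. The solid line marks equal percentiles and the dashed line the limit of -0.2, on or below which all members lie by definition.

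Few members lay beside wide linkers, and their share was below that of all level pairs, but its interval overlapped that of level pairs within the percentiles a member can have. A wide linker here is a distance of 220 bp or more between neighbouring centres of the total list, which had 159 of them with a median of 267 bp. No upper limit was set, so any long stretch without listed positions counts as a wide linker too. The mean distance to both neighbours reached 916 bp among members and 1686 bp among level pairs. Of the members 12 of 291, or 4.12% (2.37 to 7.07%), lay beside a wide linker, against 178 of 949 level pairs, or 18.8% (16.4 to 21.4%). Of those 178, 110 had an H2A.Z percentile of 0.8 or more, a range that holds 0 members and from which the rule keeps them. Among the 536 level pairs with an H2A.Z percentile of 0.8 or less and a total percentile of 0.2 or more, a comparison chosen after seeing the data, 36 lay beside a wide linker, or 6.72% (4.89 to 9.16%), which overlaps the interval of the members. Among the pairs at 0.2 or more there were 77 of 291, or 26.5% (21.7 to 31.8%). Wide linkers of the H2A.Z list gave 5.84% of members (3.68 to 9.16%) and 22.6% of all level pairs (20.0 to 25.3%), or 9.70% of the 536 (7.48 to 12.5%). In the upper 75% of scores, where dropped positions widen the distances, 22.1% of members lay beside a wide linker. Beside distances of 300 bp or more there were 3 members, or 1.03% (0.351 to 2.99%), and 50 level pairs, or 5.27% (4.02 to 6.88%).

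Positions were then counted outward from the nearest wide linker. Of the 267 pairs beside a wide linker 4.49% were members (2.59 to 7.69%), and of the 221 pairs in the next place 11.3% were (7.78 to 16.2%). The share reached 27.3% of 187 pairs in the third place (21.4 to 34.1%) and 31.8% of 151 pairs in the fourth (24.9 to 39.6%). From the fifth to the seventh place it was between 26.3 and 28.4%, with overlapping intervals. Counted from wide linkers of the H2A.Z list, the share was 34.4% in the fourth place (27.5 to 41.9%) and 28.3% in the sixth (20.1 to 38.2%). It was 14.1% in the seventh (7.83 to 24.0%), 11.5% in the eighth (5.67 to 21.8%) and 25.5% in the ninth (15.3 to 39.5%). The interval of that seventh place overlapped that of the sixth and that of the seventh by the total list (18.7 to 37.7%). By the total list, among the 252 pairs in the eleventh place or further the share was 15.5% (11.5 to 20.5%). Pairs at 0.2 or more ran the other way at the start, with 28.8% of the pairs beside a wide linker (23.7 to 34.5%) and 10.6% in the fourth place (6.63 to 16.5%). Over all pairs in the first place the median percentile was 0.86 in the H2A.Z list and 0.66 in the total list. In the fourth place these medians were 0.47 and 0.57. Thus 179 members, or 61.5% (55.8 to 66.9%), lay in the third to seventh place, against 358 level pairs, or 37.7% (34.7 to 40.9%), and 250 of the 536 level pairs within the percentiles of members, or 46.6% (42.5 to 50.9%). In the first and second place lay 12.7% of members (9.37 to 17.0%) and 25.9% of the 536 (22.4 to 29.8%). Low shares in the first place include pairs too high in H2A.Z to be members.

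**Figure D2:**
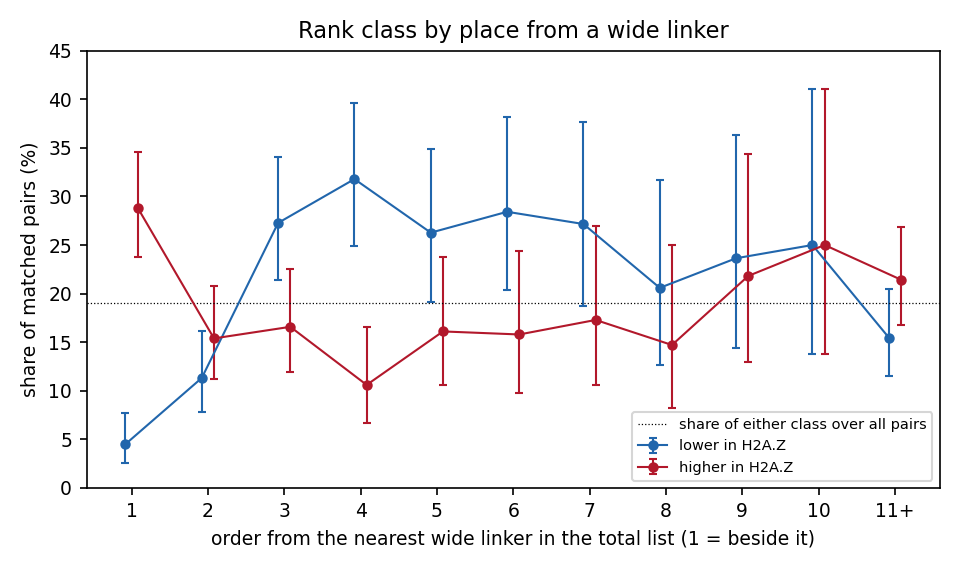
Share of matched pairs (%) that were members (blue) or pairs at 0.2 or more (red), by order from the nearest wide linker of the total list, where 1 is beside the linker and the last point pools the eleventh place and further. Bars are 95% Wilson intervals, and the dotted line marks the 19.0% that each class holds over all pairs. Members make up 4.49% of pairs in the first place and 31.8% in the fourth.

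The stretch between neighbouring wide linkers is called an array here. Members made up 69 of 318 pairs in arrays of 6 to 10 positions, or 21.7% (17.5 to 26.6%), and 211 of 1096 pairs in arrays of 11 or more, or 19.3% (17.0 to 21.7%). In arrays of up to 5 positions there were 11 members in 117 pairs, with shares of 7.69% (2.65 to 20.3%) for 1 or 2 positions and 10.3% (5.29 to 19.0%) for 3 to 5. Arrays of 6 or more positions thus held 280 of 291 members (96.2%), 871 of 949 level pairs (91.8%) and 263 of 291 pairs at 0.2 or more (90.4%). Among pairs in the third place or further, the member share did not rise with array size. It was 3 of 8 pairs in arrays of 3 to 5 positions. In arrays of 6 to 10 it was 52 of 147, or 35.4%, and in arrays of 11 or more 199 of 888, or 22.4%.

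In the single-end lists most members were regularly spaced. Both neighbouring centres of the total list lay 140 to 200 bp away for 229 of 291 members, or 78.7% (73.6 to 83.01%), for 484 of 949 level pairs, or 51.0% (47.8 to 54.2%), and for 95 of the 291 pairs at 0.2 or more, or 32.6% (27.5 to 38.2%). Among the 536 level pairs within the percentiles of members it was 62.9% (58.7 to 66.9%). In the paired-end lists, with the rule applied afresh, it was 47.5% of members (42.1 to 53.0%) and 32.9% of level pairs, so fewer members than not were regular there. By the spacing of the H2A.Z list the shares were 67.7% (62.1 to 72.8%) for members, 42.6% (39.5 to 45.7%) for level pairs and 53.7% (49.5 to 57.9%) for the 536. A neighbour closer than 140 bp was found for 16.5% of members (12.7 to 21.2%) and 28.1% of level pairs (25.4 to 31.1%). The mean of the left and right distance had a median of 164 bp for members (163 to 166 bp) and 166 bp for level pairs (164 to 167 bp), with interquartile ranges of 157 to 171 bp and 151 to 180 bp. The medians had overlapping intervals, while the distances of members were less spread.

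Around members the ladder of further centres was deeper than around all 949 level pairs. The 536 level pairs within the percentiles of members were not compared here. Of the 949, 178 lay beside a wide linker, against 12 of 291 members, and a neighbour across it can fall in the first trough. The ratios below are therefore not separate from the wide linker and spacing contrasts above. In the total list the first neighbours of members peaked at 165 bp with 0.237 centres per 10 bp and side, 25.8 times the lowest value in the following 120 bp, while for level pairs the peak at 165 bp was 0.176 and 7.53 times its trough. The next peak lay at 335 bp in both, with ratios of 10.3 for members and 3.30 for level pairs. The third lay at 495 bp in both, with ratios of 3.83 and 2.29. By the fifth neighbour the ratios were 1.82 and 1.48. In the H2A.Z list the first ratio was 16.0 for members and 5.72 for level pairs, and the second 7.25 and 2.69.

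**Figure D3:**
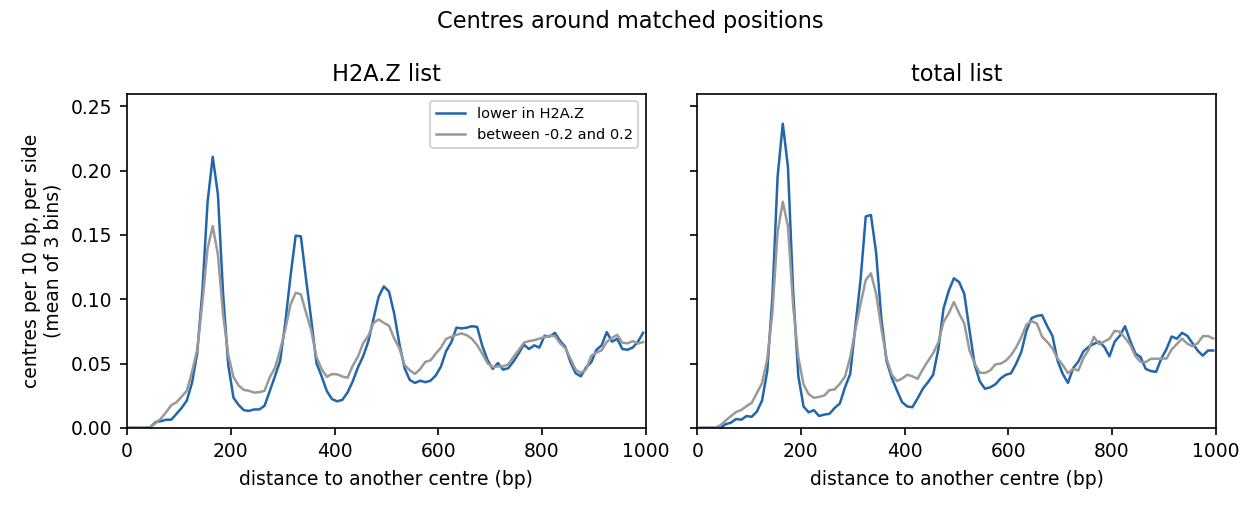
Number of other centres per 10 bp and per side (mean over 3 bins) against the distance in bp, around members (blue) and level pairs (grey), in the H2A.Z list on the left and the total list on the right. Both lists show peaks at 165 bp and at 325 or 335 bp, with higher peaks and deeper troughs around members up to the third neighbour.

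The contrast in spacing varied with the score percentile in the total list. Among pairs with a total percentile of 0.8 to 1, 77 of 83 members were regularly spaced, or 92.8% (85.1 to 96.6%), against 104 of 224 level pairs, or 46.4% (40.0 to 53.0%). Without level pairs above 0.8 in H2A.Z, 45 of 60 were, or 75% (62.8 to 84.2%). By definition a pair beside a wide linker cannot be regularly spaced. Beside one lay 103 of the 224 level pairs and 2 of the 83 members, so the spacing and wide linker contrasts are partly the same. From 0.6 to 0.8 the shares were 90.6% of 96 members (83.1 to 94.99%), 72.0% of 182 level pairs (65.1 to 78.0%) and 79.9% of the 134 of these at 0.8 or less in H2A.Z (72.3 to 85.8%). From 0.4 to 0.6 they did not separate, with 62.2% of 82 members (51.4 to 71.9%) and 63.6% of 162 level pairs (55.9 to 70.6%). From 0.2 to 0.4 there were 30 members, 46.7% of them regular (30.2 to 63.9%), against 45.6% of 180 level pairs (38.4 to 52.8%). With H2A.Z percentiles of 0.8 or less on both sides, the intervals thus separated in the range from 0.8 to 1 alone of these 4.

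Beside a wide linker, at total percentiles of 0.8 to 1, lay 2 of 83 members, or 2.41% (0.663 to 8.37%), against 103 of 224 level pairs, or 46.0% (39.6 to 52.5%), and 7 of the 60 at 0.8 or less in H2A.Z, or 11.7% (5.77 to 22.2%). From 0.6 to 0.8 it was 1.04% of members (0.184 to 5.67%) and 5.97% of the 134 level pairs (3.06 to 11.3%), and at 0.2 to 0.6 the order turned, with 8.04% of members (4.29 to 14.6%) and 6.14% of level pairs. With that limit on H2A.Z, the intervals of members and level pairs overlapped in each range of total percentile. At matched H2A.Z percentiles the picture was another, since level pairs of the same H2A.Z percentile rank lower in the total list by construction. From 0 to 0.2 in H2A.Z, 56.7% of 90 members (46.4 to 66.4%) and 29.2% of 216 level pairs (23.5 to 35.6%) were regularly spaced, and from 0.4 to 0.6, 95.7% of 70 members (88.1 to 98.5%) and 67.3% of 165 level pairs (59.8 to 73.97%). From 0.2 to 0.4 it was 83% of 100 members (74.5 to 89.1%) and 55.4% of 177 level pairs (48.0 to 62.5%). From 0.6 to 0.8 the intervals overlapped, with 90.3% of 31 members (75.1 to 96.7%) and 71.9% of 178 level pairs (64.9 to 78.0%). Beside a wide linker lay 7.78% of members (3.82 to 15.2%) and 13.4% of level pairs (9.51 to 18.6%) from 0 to 0.2, and 4% (1.57 to 9.84%) and 5.65% (3.10 to 10.1%) from 0.2 to 0.4, with overlapping intervals.

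Members followed each other along the chromosome. The percentile difference made the classes, so the following counts describe how the selected positions lie and test nothing. When a member had a next pair within 300 bp, that pair was a member in 121 of 270 cases, or 44.8% (39.0 to 50.8%), while members made up 19.8% of all 1347 such next pairs. It was a pair at 0.2 or more in 11 cases, or 4.07% (2.29 to 7.15%), against 18.5% of all next pairs. Following their own class was not particular to members. Pairs at 0.2 or more did so in 105 of 244 cases, or 43.0% (37.0 to 49.3%), against the same 18.5%. Level pairs did so in 563 of 833, or 67.6% (64.3 to 70.7%), against 61.7% of all next pairs. Without the limit of 300 bp, the pair after a member was a member in 127 of 291 cases, or 43.6% (38.1 to 49.4%). Counted in that way, the share of members fell to 35.7% at the second pair along (30.5 to 41.4%, median distance 336 bp). At the fourth it was 24.1% (19.5 to 29.3%, 737 bp). It then lay between 22.1 and 29.0% up to the twelfth pair, at 2307 bp. Neighbouring pairs also resembled each other in the percentiles themselves, with a Spearman's rho of 0.57 for the H2A.Z percentile, 0.47 for the total percentile and 0.54 for their difference over the 1347 neighbours, which share libraries and fitted regions. The nearest pair at 0.2 or more lay a median of 997 bp from a member (902 to 1135 bp) and 619 bp from a level pair (550 to 665 bp).

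The 291 members formed 170 runs of consecutive pairs. There were 112 single members, 31 runs of 2, 11 of 3, 8 of 4, 5 of 5 and 2 of 6, and 1 run of 15. Runs of 3 or more held 117 members, or 40.2% of them. The level pairs, which are more numerous, formed 386 runs, the longest of 16, and runs of 3 or more held 599 of them, or 63.1%. The pairs at 0.2 or more, equal in number to the members, formed 186 runs, the longest of 9, and runs of 3 or more held 100 of those 291. Since gene limits were not placed, whether a run lies in 1 gene was not tested.

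The run of 15 extended from 267517 to 269840 on chromosome III, 2323 bp from the first to the last centre, with 0 unmatched total positions inside. Its centres were 141 to 185 bp apart, with a median of 163 bp. Percentiles ran from 0.067 to 0.65 in the H2A.Z list (median 0.17) and from 0.27 to 0.98 in the total list (median 0.61), and the mean difference was -0.379. The run began in the third place from a wide linker. The position beside that linker, at 267170, ranked 38 in the H2A.Z list and 54 in the total list, and the position after it, at 267340, ranked 835 and 739. The first member, at 267517, ranked 948 in H2A.Z and 224 in total, and the third, at 267847, ranked 563 and 27. From the third place on the total rank was ahead of the H2A.Z rank at all 15 positions, by the rule, though total ranks inside the run spread from 27 to 1233. Past the run, the pair at 270020 missed the limit with a difference of -0.143, and each of the next 7 pairs, up to 271685, was again a member, interrupted by a gap of over 300 bp between pairs.

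**Figure D4:**
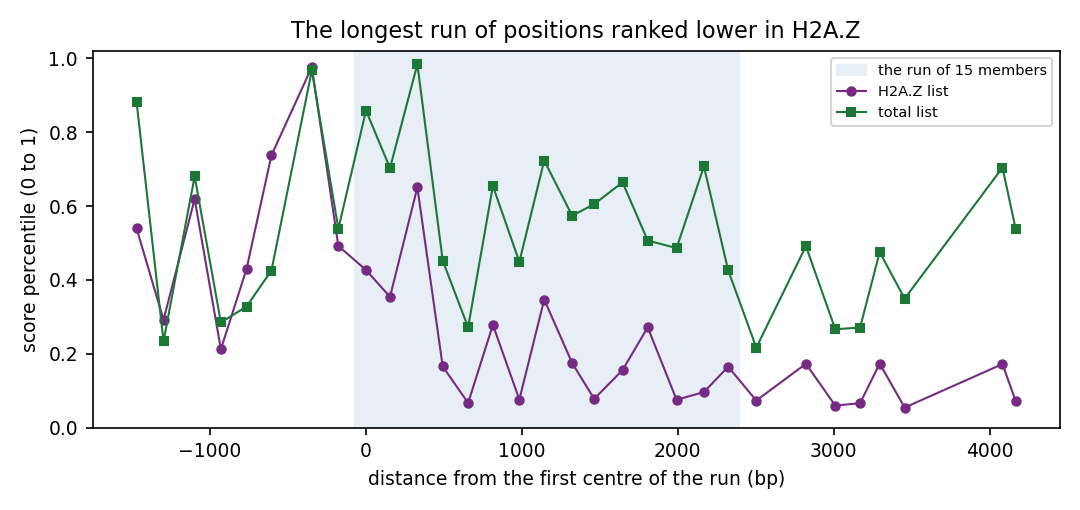
Score percentile (0 to 1) in the H2A.Z list (purple circles) and in the total list (green squares) against the distance in bp from the first centre of the run of 15 members (shaded), with the 8 matched pairs before and after it. Left of the shading both lists reach 0.97 or 0.98 beside the wide linker, and inside it the H2A.Z line lies below the total line at all 15 positions.

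The other 4 runs named here, both runs of 6 and 2 of the 5 runs of 5, were shorter than 900 bp. A run of 6 from 278207 to 278993 had a mean difference of -0.388, with H2A.Z percentiles of 0.11 to 0.29 and total percentiles of 0.46 to 0.83. A run of 6 from 173882 to 174726 had a mean of -0.275, with 0.094 to 0.70 in H2A.Z and 0.37 to 0.94 in total. A run of 5 from 70488 to 71121 had the most negative mean of these, -0.491. All its positions had high percentiles in total, at 0.78 to 0.91, against 0.12 to 0.53 in H2A.Z. Its centres were 155 to 161 bp apart. A run of 5 from 36597 to 37342 had a mean of -0.418, with 0.15 to 0.37 in H2A.Z and 0.55 to 0.83 in total, and 1 unmatched total position inside. Each of these runs lay in an array of 18 to 36 total positions. The earliest place from a wide linker in them was the second, and the latest the eleventh.

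Members were unevenly spread along the chromosome. Windows of 10 kb held 0 to 21 members. Exact intervals excluded the share of 19.0% in 9 of 32 windows, lying above it in 4 and below it in 5. These intervals take pairs as independent, while the difference of neighbouring pairs had a Spearman's rho of 0.54. They are therefore too narrow for clustered members, and whether the spread between windows exceeds that of clustering was not tested. The window from 260 to 270 kb was highest, with 21 of 52 pairs or 40.4% (27.0 to 54.9%), and contains the run of 15. Next came 230 to 240 kb with 17 of 50, or 34.0% (21.2 to 48.8%). The window from 110 to 120 kb had 0 of 52, which allows a share of up to 5.77% by 3 counts and 6.85% by the exact interval, and 25 of its pairs were at 0.2 or more. The window from 50 to 60 kb had 1 of 51, or 1.96% (0.0496 to 10.4%). Near the right end, the windows from 280 to 310 kb, named after their values were seen, had 4, 2 and 3 members, with 21, 15 and 23 pairs at 0.2 or more. The last 20 kb had 9 members in 99 pairs, or 9.09% (4.24 to 16.6%), the first 20 kb had 13 in 84, or 15.5% (8.51 to 25.01%), and the rest had 20.0% (17.9 to 22.2%).

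**Figure D5:**
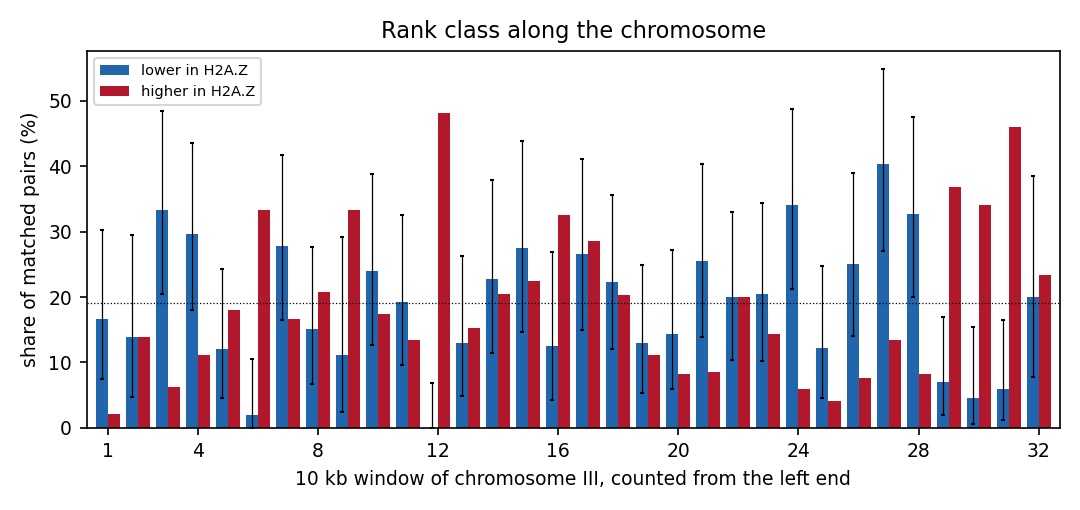
Share of matched pairs (%) that were members (blue, with exact 95% intervals) or pairs at 0.2 or more (red), in 32 windows of 10 kb counted from the left end of chromosome III. The dotted line marks the overall 19.0%, and the member share runs from 0 in the twelfth window to 40.4% in the 27th.

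By the median, members were fuzzier in the H2A.Z library than in total chromatin, most of all at high total percentiles. Fuzziness is given by how widely the forward reads of a position scatter, as an SD taken from the deposited forward variance. It comes from the same fit as the score and is therefore not independent of the rule. The median forward SD of members was 30.5 bp in the H2A.Z list (29.9 to 31.1 bp) and 27.5 bp in the total list (26.2 to 28.3 bp), and that of level pairs 29.8 bp (29.3 to 30.3 bp) and 28.6 bp (28.1 to 29.2 bp). Per position, H2A.Z minus total had a median of 3.15 bp for members (2.70 to 3.58 bp), was above 0 in 230 of 291, and had a median of 0.211 bp for level pairs (-0.0686 to 0.549 bp). The 536 level pairs within the percentiles of members had a median of 1.19 bp (0.837 to 1.65 bp). Pairs at 0.2 or more had a median of -2.21 bp (-2.86 to -1.42 bp). The reverse-strand SD gave 3.14 bp for members (2.55 to 3.68 bp) and 0.0818 bp for level pairs (-0.123 to 0.429 bp). By total percentile the median difference was 4.40 bp for members at 0.8 to 1 (3.69 to 5.24 bp), 3.39 bp at 0.6 to 0.8 (2.24 to 4.16 bp), 1.47 bp at 0.4 to 0.6 (0.228 to 2.69 bp) and 0.356 bp at 0.2 to 0.4 (-3.77 to 3.29 bp). Level pairs in the same ranges, in the same order, had -0.700, 1.06, 0.985 and 0.687 bp, and without those above 0.8 in H2A.Z 1.56 bp (0.823 to 2.55 bp) in the highest range and 2.03 bp (1.23 to 2.32 bp) in the next.

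The length of the protected DNA differed little, and the order of the centre offsets was not the same in both kinds of list. The distance between forward and reverse read peaks had a median of 129 bp for members in both lists (H2A.Z interval 127.8 to 130.4 bp, total interval 127.8 to 130.1 bp) and of 128 bp for level pairs in both (127.1 to 128.5 bp and 127.2 to 128.6 bp). H2A.Z minus total was -0.342 bp for members (-0.895 to 0.517 bp) and -0.775 bp for level pairs (-1.14 to -0.265 bp). Member centres lay a median of 3.47 bp apart between the libraries (2.70 to 4.31 bp), within 5 bp for 180 and more than 10 bp apart for 43. Level pairs had a median of 4.10 bp (3.72 to 4.45 bp), and the intervals overlapped. In paired-end lists the order turned, with 5.797 bp for the same members (4.29 to 6.63 bp) and 5.23 bp for level pairs (4.59 to 5.81 bp), and with the rule applied afresh 6.51 bp for members (5.29 to 7.12 bp) and 5.31 bp for level pairs. The signed offset, H2A.Z minus total, was -0.174 bp for members (-0.848 to 0.467 bp) and 0.462 bp for level pairs (0.0267 to 0.913 bp). For members the standard error of the centre had a median of 2.68 bp in H2A.Z (2.57 to 2.77 bp) and 1.58 bp in total (1.51 to 1.66 bp), against 2.51 bp (2.41 to 2.64 bp) and 2.01 bp (1.91 to 2.09 bp) for level pairs. This error too comes from the fit that gave the score.

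Each library also has a list from paired-end data, made from the same DNA, so these lists are another reading of the same libraries and no independent support. A paired-end partner within 20 bp in both libraries was found for 231 of 291 members and 725 of 949 level pairs. By percentiles over all rows of the paired-end lists, 226 of the 231 members, or 97.8% (95.03 to 99.1%), were lower in H2A.Z, and 174, or 75.3% (69.4 to 80.4%), by 0.2 or more. Of the level pairs 56.7% (53.1 to 60.3%) were lower and 8.83% (6.97 to 11.1%) by 0.2 or more. With the same rule applied afresh to the paired-end lists, 20.7% of 1555 pairs were at -0.2 or less and 19.6% at 0.2 or more. The peak distance in paired-end lists had a median of 126 bp in H2A.Z and 128 bp in total for members, with H2A.Z minus total at -1.75 bp (-2.24 to -0.928 bp). For level pairs it was 125 and 127 bp, with -1.36 bp (-1.55 to -1.03 bp). The forward SD differed by 3.34 bp for members (2.78 to 3.99 bp) and 0.849 bp for level pairs (0.467 to 1.21 bp), H2A.Z minus total. At least 2 paired-end centres lay within 73 bp of the position for 18.2% of members (14.2 to 23.1%) and 18.3% of level pairs (16.0 to 20.9%) in H2A.Z, and for 19.9% (15.7 to 24.9%) and 23.1% (20.5 to 25.9%) in total chromatin, with overlapping intervals.

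The 10 members with the most negative difference spanned -0.841 to -0.562. The first, at 65822 in total and 65803 in H2A.Z, ranked 1808 of 1859 in H2A.Z with a score of 0.459, and 234 of 1881 in total with a score of 4.46. It differs from the other 9 in lying beside a wide linker, 267 bp from its left neighbour. Its centres also lay 19.0 bp apart, close to the matching limit, and its forward SD was 35.5 bp in H2A.Z and 20.4 bp in total. The standard error of its H2A.Z centre was 11.8 bp, against a median of 2.68 bp over members, so this centre was poorly fixed. In the paired-end lists, from the same libraries, this position ranked 2118 in H2A.Z and 326 in total. Its H2A.Z rank was thus low in both kinds of list.

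The second, at 278993, ended one of the runs of 6 and ranked 1555 in H2A.Z and 276 in total. The next, at 70804, ranked 1548 in H2A.Z with a score of 0.932, and 352 in total with a score of 3.92. It lay in the run of 5 that starts at 70488, with neighbours 155 and 159 bp away. Its forward SD was 27.5 bp in H2A.Z and 18.2 bp in total. Such a position had a high rank and a narrow read scatter in the total list, and a low rank in the H2A.Z list.

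The member at 272342 ranked 1376 in H2A.Z and 263 in total. That at 215687 ranked 1142 in H2A.Z and 87 in total, the best total rank of the 10, in the fifth place of an array of 9. The member at 269684 belonged to the run of 15 and ranked 1600 in H2A.Z and 469 in total. The remaining 4, at 235118, 128384, 36597 and 21605, ranked 1417, 1800, 1481 and 1229 in H2A.Z and 396, 662, 462 and 266 in total. Of the 10, 9 lay in the third place from a wide linker or further, and the 8 with partners in both paired-end lists were all lower in H2A.Z there, with differences of -0.797 to -0.304.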

How the data were processed

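Nucleosome positions on chromosome III were deposited for 2 libraries, 1 per group, as 2 lists each, 1 from single-end and 1 from paired-end data per the file names. The submitters' processing notes name BWA, SAMtools and sacCer2. The series title and the file names give PING, a mixture model of read positions, and its settings were not stated. Centres, peak distances, variances and standard errors were deposited in bp or squared bp, and the mixing weight as a fraction, per the file headers. The deposited score has no stated scale, so only its ranks within a list were compared. The deposited ranks follow it.

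Positions were matched, ranked and described in Python 3.11.15 with numpy 2.4.6, pandas 2.3.3 and scipy 1.17.1, and drawn with matplotlib 3.10.9. Shares have 95% Wilson intervals (exact for windows and ends) and medians order-statistic intervals. Intervals cover counting error only. Differences of exactly -0.2 count as members. The steps were tested on simulated data with planted members, which lay well past the limit and had little noise. How well members near the limit are recovered was not tested. The members, lists and descriptions were chosen with earlier results of these data known. Positions named by rule are the 10 most negative differences, the 5 longest runs, 3 pairs on each side of the limit, and the 2 windows with the highest and 2 with the lowest shares. Gene assignment and sequence were not used here. The labels disagree on antibody clone and fixation time.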

Additional observations from a re-analysis of the deposited data

How the results depend on the processing

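The 10 results were recomputed under 72 alternatives, 11 of them chosen after seeing the data. Of these, 46 fell inside the 95% interval of the value given above and 26 outside it. A change of sign was possible for the difference in SD alone, since the other results cannot be negative, and 0 were found. The order of members and their comparison turned in 4 alternatives, which are named below.

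The share of next pairs that were members was 29.7% at a limit of -0.3 and 59.8% at -0.1, beside 10.5% and 35.5% of all next pairs. In the upper 75% of scores, members were 23.3% of pairs, 22.1% of them lay beside a wide linker (45.2% of level pairs, since dropped positions widen distances), 72.1% were regular, the spacing was 169 bp and the offset 2.68 bp. Regular shares were 83.2% and 69.8% for match distances of 10 and 40 bp, 83.2% and 71.3% for limits of -0.3 and -0.1, and 47.5% in paired-end lists (32.9% of level pairs). Offsets were 2.55 and 4.63 bp for 10 and 40 bp, which limit them by construction.

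In paired-end lists the spacing was 152 bp, the peak distance 128 bp (127.6 bp), the difference in forward SD 4.15 bp and the offset 6.51 bp. There the order of members and level pairs turned for the spacing (151.8 bp for level pairs) and the offset (5.31 bp). The offset also turned at -0.1 (3.844 and 3.838 bp). The difference in SD was 2.45 bp at -0.1 and 2.63 bp for total percentiles of 0.4 to 0.8. Split by total percentile, 0.6 or more gave 1.68% beside a wide linker, 91.6% regular and 3.75 bp, and 0.2 to 0.6 gave 8.04% (6.14% of level pairs, so the order turned), 58.0% (54.1%) and 1.29 bp. The cause was not tested. Against level pairs within the percentiles of members, with all total percentiles pooled, the wide linker, spacing and SD contrasts were smaller and kept their order, as given above.

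With 1 library per group, none of these values has a replicate check, and the unknown depth sets no limit that can be stated. No paired analysis was possible because each group has 1 library.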
